A study of Rattus norvegicus with 4 samples.

Results

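The genes described here encode the enzymes that remove superoxide, hydrogen peroxide and lipid peroxides in heart muscle cells, together with the transcription factor Nrf2 and its targets. They were chosen by symbol, as 34 genes in 8 families, and each of the 34 is listed once among the 15731 genes with deposited values. The RNA came from ventricular cardiomyocytes of wild type Wistar rats at postnatal day 1, kept in culture and transfected with Lipofectamine RNAiMAX. The cells were those still in suspension after a first plating step, described in the labels as mainly cardiomyocytes. The 4 groups differed in the transfected miRNA mimic, which was hsa-miR-25-3p, hsa-miR-93-5p, hsa-miR-106b-5p or, as control, the worm miRNA cel-miR-67. RNA was taken 72 h after transfection, and the mimic dose is given as 25 nM in one label and as 25 mM in another label and in the methods. Every culture, the control included, carried a mimic and the transfection reagent, so no value from untransfected cells stands beside these. Each mimic gave 1 library. Differences between mimics therefore have no replicate check, no p-value is given, and the intervals below cover counting error only.

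Superoxide leaks mainly from the mitochondrial respiratory chain, and superoxide dismutases turn it into hydrogen peroxide. Catalase, the glutathione peroxidases and the peroxiredoxins then remove the peroxide, the peroxidases and peroxiredoxins at the expense of glutathione or thioredoxin, which NADPH-dependent reductases restore. Nrf2, encoded by Nfe2l2, is held low by the adaptor Keap1 and, when released by oxidants or electrophiles, binds antioxidant response elements in the promoters of genes for glutathione synthesis, quinone reduction and haem breakdown. Cardiomyocytes are rich in mitochondria and rely on these enzymes after birth, when the heart moves to oxidative metabolism.

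The mimics carry 2 seeds, and the seeds order the comparisons that follow. The rat mature miRNAs, taken from RefSeq on the GRCr8 build because the mimics' own human sequences were not used here, are shown with the seed (bases 2 to 8) in capitals. All 3 lie on the minus strand within the protein-coding gene Mcm7, at chr12:22157103-22157123 for miR-106b, chr12:22156894-22156916 for miR-93 and chr12:22156652-22156673 for miR-25.
rno-miR-106b-5p: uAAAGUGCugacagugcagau
rno-miR-93-5p: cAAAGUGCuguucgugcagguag
rno-miR-25-3p: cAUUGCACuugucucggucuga
miR-106b and miR-93 share the seed AAAGUGC, and miR-25 has the seed AUUGCAC.

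Levels are given as deposited in RPKM, the reads of a gene scaled to its counted length and to the size of the library. The reads behind these values were recovered for all 15731 genes, and reads on listed genes numbered 18797375 after miR-106b, 16520194 after miR-93, 16460231 after miR-25 and 15175309 in the control library. The least read of the 34 genes had between 14 and 24 reads in a library and the most read between 5067 and 6357. The cultures expressed the defining genes of heart muscle, led by the myosin light chain Myl2 at 6838 RPKM in the control library, 7223 after miR-106b, 4994 after miR-93 and 3249.6 after miR-25. All 9 listed cardiomyocyte markers were past 1.3-fold lower after miR-25, and their summed RPKM was 13306 after miR-106b, 10913 after miR-93, 7133 after miR-25 and 13212 in the control. Lists named for other cells moved as well, although some of their genes, such as Des, are also expressed by cardiomyocytes. The 10 fibroblast markers (led by Col3a1) summed to 664, 767, 350.0 and 852 RPKM in the same order. The 10 smooth muscle and pericyte markers (led by Des in the control) summed to 1173, 966, 2940.0 and 1416. After miR-25 the highest of these was Tagln at 1306 RPKM, and of 9 counted, 7 were past 1.3-fold higher and 1 lower. The 9 endothelial markers (led by Egfl7) summed to between 5.84 and 8.71, with Cldn5 listed at 0 in the miR-106b and control libraries, the 10 macrophage markers (led by Lyz2) to between 15.9 and 26.4 and the 7 erythroid markers (led by Hbb) to between 7.36 and 14.6. The endothelial, macrophage and erythroid sums were each lowest after miR-25. The part of these shifts in the values below was not tested, and in a culture read as a whole fewer cells of a type and less RNA per cell cannot be told apart.

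The antioxidant genes were among the more abundant transcripts, and between 14 and 17 of the 34 lay in the top 10% of genes of a library. Together they held 0.333% of the listed reads after miR-106b, 0.337% after miR-93, 0.334% after miR-25 and 0.347% in the control. Glutaredoxin (Glrx), sulfiredoxin (Srxn1), extracellular superoxide dismutase (Sod3) and the cystine transporter Slc7a11 were the lowest in every library, and the peroxiredoxins Prdx1 and Prdx2 and thioredoxin 1 (Txn1) were in the top range of each. Txn1 and Prdx2 have short counted lengths of 315 and 438 bases, on which their rank per length depends.

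**Figure D1:**
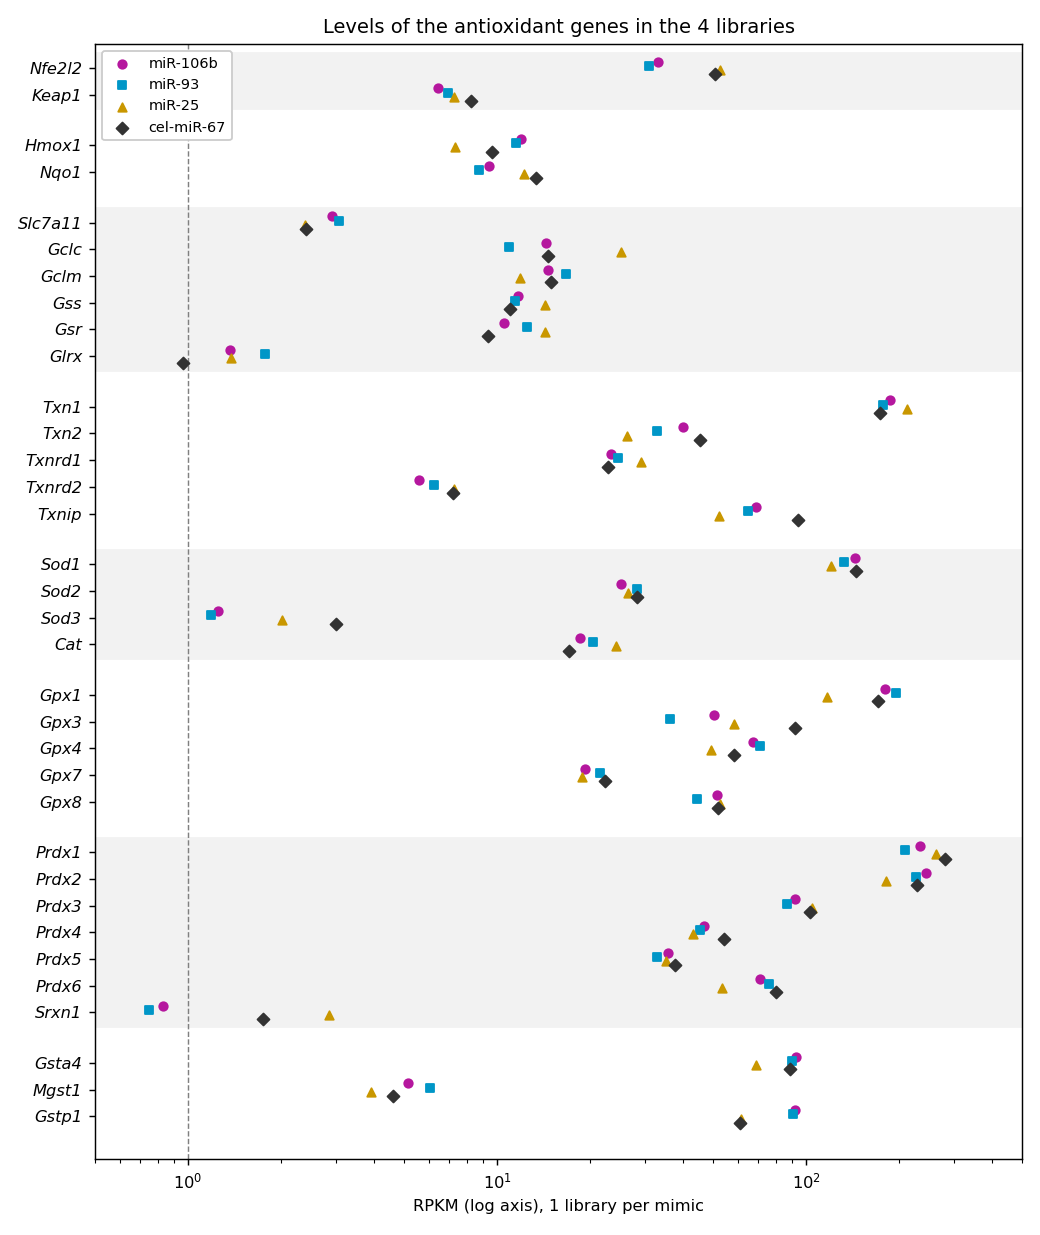
RPKM (log axis) of the 34 genes, grouped by family, with 1 point for each of the 4 libraries and a dashed line at an RPKM of 1.0. Most genes lie between 5 and 300 RPKM with the 4 points close together, while Sod3, Gpx3, Srxn1, Nfe2l2 and Gclc show the libraries apart.

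A gene was counted as upregulated or downregulated when the ratio of its RPKM to that in the control passed 1.3-fold, a log2 ratio of 0.38, with an RPKM above 1.0 in both libraries. Where 3 ratios stand in a row they are those of miR-106b, then miR-93, then miR-25. With miR-106b, 1 of 32 counted genes was upregulated (Gstp1) and 5 were downregulated (Sod3, Gpx3, Nfe2l2, Nqo1 and Txnip), which is 18.8% of the genes. Of all 11296 genes tested, 24.6% passed the cutoff, 11.9% upwards and 12.7% downwards. With miR-93, 3 of 32 were upregulated (Gstp1, Gsr and Mgst1) and 8 downregulated (Sod3, Gpx3, Nfe2l2, Nqo1, Txnip, Txn2, Prdx1 and Gclc), or 34.4%, against 30.8% of all 11280 genes (15.1% upwards and 15.6% downwards). With miR-25, 4 of 33 were upregulated (Gclc, Srxn1, Gsr and Cat) and 7 downregulated (Txnip, Txn2, Gpx3, Prdx6, Sod3, Gpx1 and Hmox1), or 33.3%, against 42.0% of all 11198 genes (19.3% upwards and 22.6% downwards). The share of antioxidant genes past the cutoff thus lay under that of all genes for miR-106b and miR-25 and near it for miR-93. For every one of these calls the 95% exact interval of the ratio did not include 0 on the log2 scale, and the share of all genes that met both conditions was 22.7%, 29.0% and 40.3%. The median log2 ratio of the counted genes was -0.027, -0.064 and -0.13 for miR-106b, for miR-93 and for miR-25, beside -0.0033, -0.0018 and -0.012 over all genes tested.

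The balance between upregulated and downregulated genes depended on how libraries were scaled. Listed genes held 63.2%, 60.5%, 60.4% and 66.9% of the library sizes behind the deposited values, in the order miR-106b, then miR-93, then miR-25 and then the control. Scaled to reads on listed genes instead, all log2 ratios shift upwards by 0.083 after miR-106b, 0.15 after miR-93 and 0.15 after miR-25. The counts then become 2 upregulated and 4 downregulated after miR-106b, 7 and 5 after miR-93, and 7 and 6 after miR-25. The median log2 ratio over all genes tested moves to 0.080, 0.14 and 0.14, so the shift is not particular to these genes. Under the deposited scaling that median lay nearer 0 with each mimic. Throughout, shares of all genes past the cutoff are given for the deposited scaling only. Sod3, Gpx3, Nfe2l2, Nqo1 and Gstp1 kept all their calls under this scaling, and genes that gained or lost one are named with their values below.

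**Figure D2:**
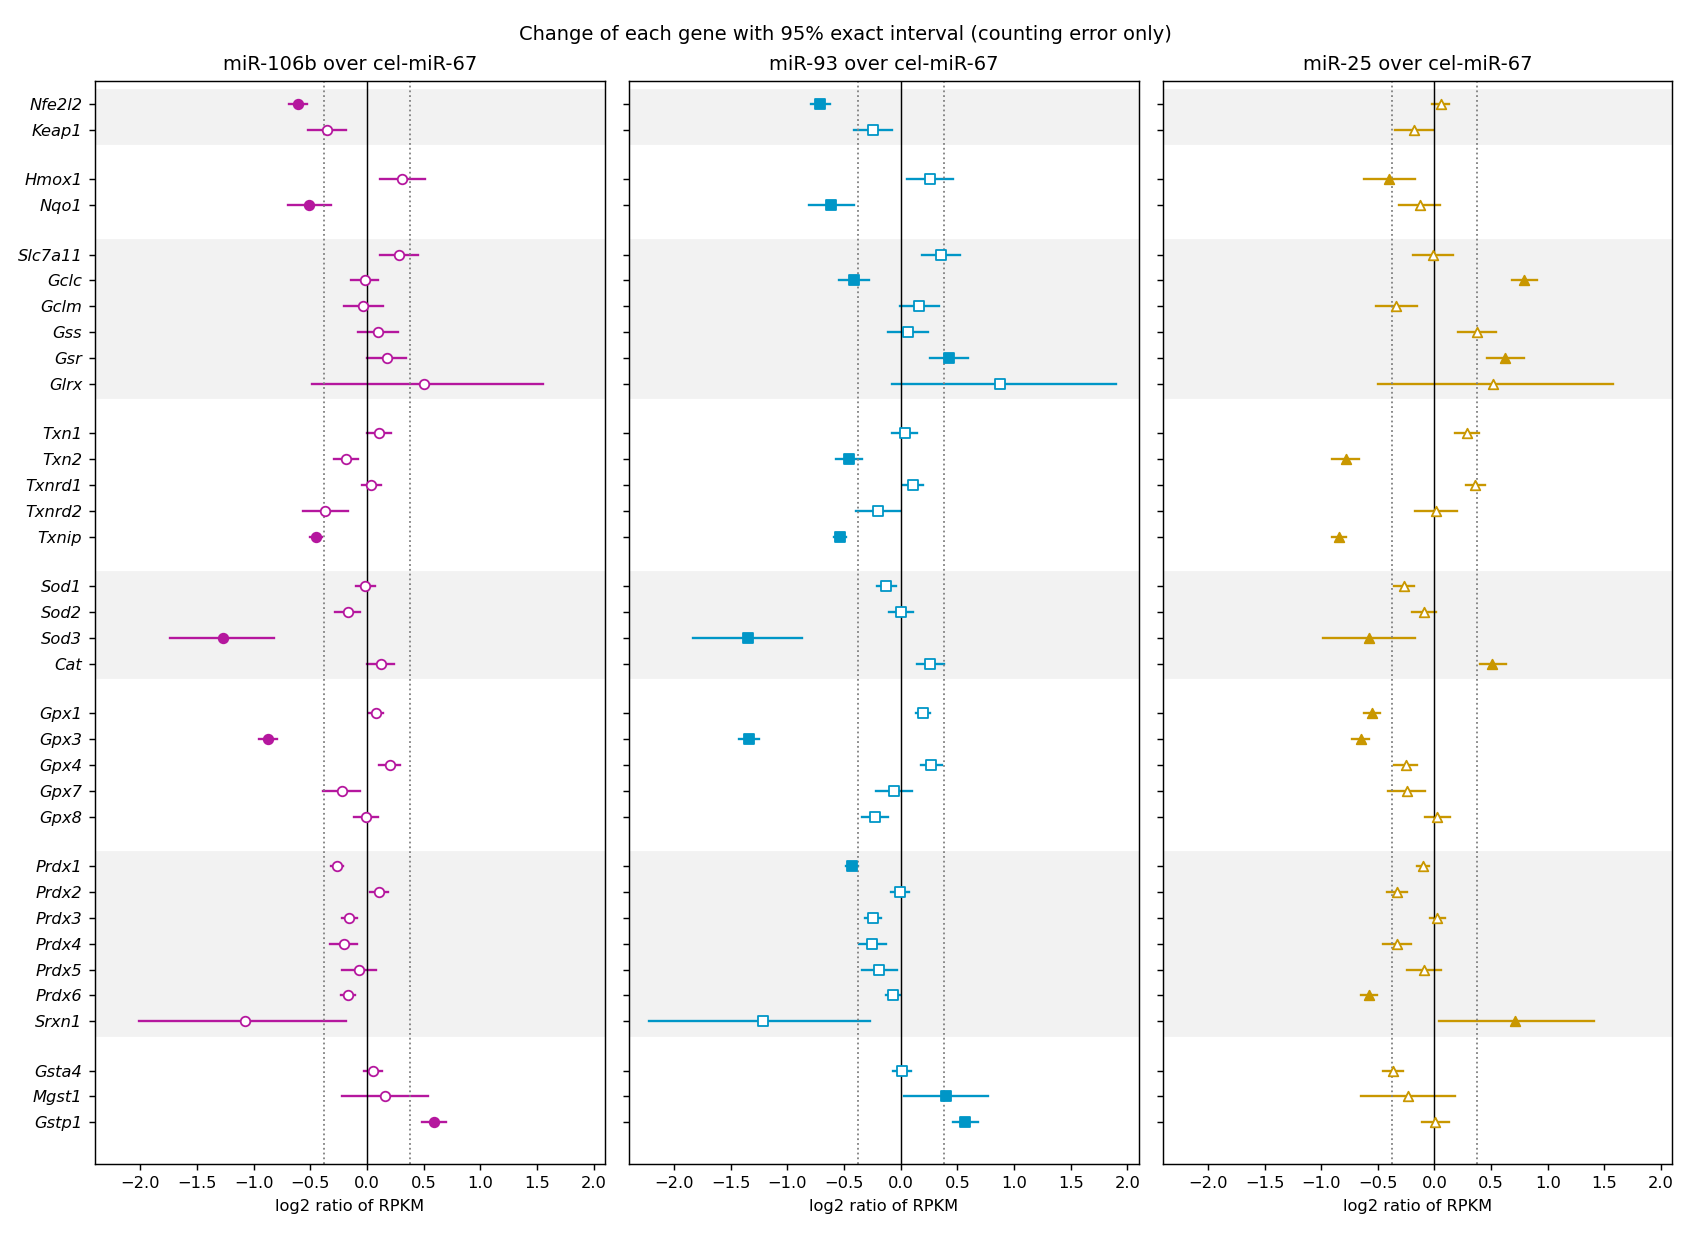
Log2 ratio of RPKM to cel-miR-67 for the 34 genes in 1 panel per mimic, with 95% exact intervals that cover counting error only and dotted lines at 1.3-fold. Filled symbols mark genes past 1.3-fold with an RPKM above 1.0 in both libraries, and Sod3, Gpx3 and Txnip are filled on the left in all 3 panels.

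Nrf2 and its inhibitor were considered first. Nfe2l2 (ENSRNOG00000001548) was measured at 50.6 RPKM in the control library, 33.2 after miR-106b, 30.9 after miR-93 and 52.5 after miR-25. The miR-25 and control libraries lay together, and both libraries with the AAAGUGC seed lay lower. The log2 ratio to control was -0.61 (95% interval -0.69 to -0.53) after miR-106b, -0.71 (95% interval -0.79 to -0.62) after miR-93 and 0.05 (95% interval -0.02 to 0.13) after miR-25. Keap1, which delivers Nrf2 to the proteasome, was at 8.20 RPKM in the control library, 6.41 after miR-106b, 6.92 after miR-93 and 7.23 after miR-25. It was lowest after miR-106b, and its ratios of -0.36, -0.24 and -0.18 were all within the cutoff. Within a library, which frees the value from scaling, the level of Nfe2l2 was 5.18 times that of Keap1 after miR-106b, 4.47 after miR-93, 7.27 after miR-25 and 6.17 in the control.

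The haem and quinone enzymes, which are standard Nrf2 targets, differed in direction. Nqo1, a quinone reductase, was at 13.4 RPKM in the control library, 9.39 after miR-106b, 8.74 after miR-93 and 12.2 after miR-25. Like Nfe2l2 it was lower with both miR-106b and miR-93, with log2 ratios of -0.51 (95% interval -0.70 to -0.32) and -0.61 (95% interval -0.81 to -0.42), and after miR-25 the ratio was -0.13 (95% interval -0.31 to 0.05). Hmox1, haem oxygenase 1, was at 9.60 RPKM in the control library, 11.9 after miR-106b, 11.5 after miR-93 and 7.29 after miR-25. It was below the control after miR-25 at -0.40 (95% interval -0.62 to -0.17) and above it, within the cutoff, at 0.31 after miR-106b and 0.26 after miR-93. The Hmox1 calls rest on the scaling, since ratios computed on listed reads were 0.39 after miR-106b and 0.41 after miR-93, both past the cutoff, and -0.25 after miR-25, within it.

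Glutathione is made from cystine, which the transporter Slc7a11 brings in, by glutamate-cysteine ligase and glutathione synthetase. The catalytic subunit of the ligase, Gclc (ENSRNOG00000006302), was measured at 14.6 RPKM in the control library, 14.4 after miR-106b, 10.9 after miR-93 and 25.2 after miR-25. Its level after miR-25 stood well above the other libraries, and that after miR-93 was the lowest. The log2 ratio was 0.79 (95% interval 0.68 to 0.90) after miR-25, -0.02 (95% interval -0.14 to 0.10) after miR-106b and -0.41 (95% interval -0.54 to -0.28) after miR-93, so Gclc was the only one of the 34 genes past the cutoff in opposite directions with 2 mimics. On listed reads the miR-93 ratio was -0.27, within the cutoff. The regulatory subunit Gclm, by contrast, was at 14.9 RPKM in the control library, 14.6 after miR-106b, 16.7 after miR-93 and 11.8 after miR-25, lowest after miR-25 and highest after miR-93, with ratios of -0.03, 0.16 and -0.34 that stayed within the cutoff. The level of Gclc relative to Gclm within each library was accordingly 0.984 after miR-106b, 0.654 after miR-93, 2.13 after miR-25 and 0.976 in the control.

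Of the remaining glutathione genes, 1 was upregulated with more than 1 mimic. Glutathione reductase (Gsr), which restores glutathione from its oxidised form, was at 9.30 RPKM in the control library, 10.5 after miR-106b, 12.5 after miR-93 and 14.3 after miR-25. All mimic libraries lay above the control, and the ratio passed the cutoff at 0.43 (95% interval 0.26 to 0.60) after miR-93 and 0.62 (95% interval 0.46 to 0.79) after miR-25 but not at 0.17 (95% interval 0.00 to 0.34) after miR-106b. Glutathione synthetase (Gss) had 11.0 RPKM in the control library, 11.7 after miR-106b, 11.5 after miR-93 and 14.2 after miR-25. With miR-25 its ratio of 0.38 (95% interval 0.21 to 0.55) was just short of the cutoff, and it was 0.52 on listed reads. Slc7a11 was at 2.40 RPKM in the control library, 2.93 after miR-106b, 3.08 after miR-93 and 2.38 after miR-25, higher in the miR-106b and miR-93 libraries. Its ratios of 0.28, 0.36 and -0.01 stayed within the cutoff, that after miR-93 reaching 0.50 on listed reads. Glrx, a small enzyme that removes glutathione from proteins, had 26, 31, 24 and 14 reads in the libraries of miR-106b, of miR-93, of miR-25 and of the control. Its control RPKM of 0.96 left it out of the counts, and the interval of each of its 3 ratios to control included 0.

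In the thioredoxin system, the cytosolic and the mitochondrial protein differed after miR-25. Cytosolic Txn1 was at 173 RPKM in the control library, 186 after miR-106b, 177 after miR-93 and 212 after miR-25, and its ratio of 0.29 (95% interval 0.18 to 0.39) after miR-25 was the highest of the 3. Txn2, the mitochondrial thioredoxin, was at 45.3 RPKM in the control library, 39.8 after miR-106b, 33.0 after miR-93 and 26.3 after miR-25. Every mimic library lay below the control, and the ratio was -0.19 (95% interval -0.29 to -0.08) after miR-106b, -0.46 (95% interval -0.57 to -0.34) after miR-93 and -0.78 (95% interval -0.91 to -0.66) after miR-25. The miR-25 value kept its call on listed reads, while the miR-93 value then was -0.31. Of the reductases that restore them, cytosolic Txnrd1 was at 22.8 RPKM in the control library, 23.4 after miR-106b, 24.6 after miR-93 and 29.2 after miR-25. Mitochondrial Txnrd2 was at 7.19 RPKM in the control library, 5.57 after miR-106b, 6.25 after miR-93 and 7.25 after miR-25. Txnrd1 was highest after miR-25, with a ratio of 0.36 (95% interval 0.28 to 0.44), and Txnrd2 was lowest after miR-106b, with a ratio of -0.37 (95% interval -0.57 to -0.17). Neither passed the cutoff in any comparison with the control, although Txn1 and Txnrd1 after miR-25 reached 0.44 and 0.51 on listed reads.

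Txnip, which binds reduced thioredoxin and blocks it, was one of 3 genes downregulated with each mimic. It was at 93.7 RPKM in the control library, 68.5 after miR-106b, 64.7 after miR-93 and 52.3 after miR-25, so the control stood above all mimic libraries and miR-25 was lowest. The log2 ratios were -0.45 (95% interval -0.51 to -0.40) after miR-106b, -0.54 (95% interval -0.59 to -0.48) after miR-93 and -0.84 (95% interval -0.90 to -0.78) after miR-25, and the first was -0.37, just within the cutoff, on listed reads. Per length, the level of Txnip relative to Txn1 was 0.368, 0.364 and 0.247 with the 3 mimics and 0.541 in the control. Txnip was among the genes that the study went on to silence, and its gene networks, built from these libraries, had oxidative stress among their themes, so these values are not independent of such choices.

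Of the superoxide dismutases, the secreted enzyme differed most from control. Sod3 (ENSRNOG00000003869) had 64, 56, 95 and 118 reads in the libraries of miR-106b, of miR-93, of miR-25 and of the control, or 1.24, 1.19, 2.02 and 3.01 RPKM. The control was highest and both AAAGUGC libraries lowest, with ratios of -1.27 (95% interval -1.74 to -0.82) for miR-106b, -1.34 (95% interval -1.83 to -0.87) for miR-93 and -0.58 (95% interval -0.98 to -0.18) for miR-25. The abundant cytosolic Sod1 was at 145 RPKM in the control library, 143 after miR-106b, 133 after miR-93 and 120.1 after miR-25. The mitochondrial Sod2 was at 28.3 RPKM in the control library, 25.1 after miR-106b, 28.3 after miR-93 and 26.5 after miR-25. Their ratios, -0.01, -0.13 and -0.27 for Sod1 and -0.17, 0.00 and -0.09 for Sod2, were within the cutoff with every mimic. Catalase (Cat), which splits hydrogen peroxide without a reductant, was at 17.0 RPKM in the control library, 18.5 after miR-106b, 20.4 after miR-93 and 24.3 after miR-25. It was above control in each mimic library, with ratios of 0.12 (95% interval 0.00 to 0.24), 0.26 (95% interval 0.14 to 0.38) and, past the cutoff, 0.51 (95% interval 0.40 to 0.63) for miR-106b, for miR-93 and for miR-25. The miR-93 ratio was 0.41 on listed reads.

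Gpx3, the plasma glutathione peroxidase and like Sod3 a secreted enzyme, was likewise lower with each mimic. It was at 91.8 RPKM in the control library, 50.2 after miR-106b, 36.3 after miR-93 and 58.4 after miR-25. All mimic libraries lay far below the control and miR-93 lay below the other mimics, with log2 ratios of -0.87 (95% interval -0.95 to -0.79), -1.34 (95% interval -1.43 to -1.25) and -0.65 (95% interval -0.73 to -0.57) for miR-106b, for miR-93 and for miR-25. Sod3, Gpx3 and Txnip were the 3 genes downregulated with each mimic, while 0 of 34 were upregulated with each. Among all 10984 genes above an RPKM of 1.0 in all 4 libraries, 3.12% were downregulated and 3.38% upregulated with each mimic, and the 3 comparisons share the control library. Of the 10 fibroblast markers, 5 were past 1.3-fold lower after miR-106b, 5 after miR-93 and 7 after miR-25, where 12.7%, 15.6% and 22.6% of all genes were. Past it upwards were 0, 0 and 1, the last being Lum at 0.87 after miR-25, and Col1a1 was at 0.08 after miR-106b and 0.15 after miR-93. Their part in the lower Sod3 and Gpx3 levels was not tested.

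Gpx1 and Gpx4 set the miR-25 library apart from the other two mimics. Cytosolic Gpx1 (ENSRNOG00000048812) was at 170.2 RPKM in the control library, 179.7 after miR-106b, 195 after miR-93 and 116 after miR-25. It was slightly above the control after miR-106b and miR-93, at 0.08 and 0.20, and downregulated after miR-25 at -0.55 (95% interval -0.62 to -0.48). In the miR-25 library all 9 cardiomyocyte markers were lower as well, with a median log2 ratio of -0.85. Past 1.3-fold lower there were also 7 of 10 fibroblast and 4 of 6 counted macrophage markers, where 22.6% of all genes were. Of 9 counted smooth muscle and pericyte markers, 7 were higher. The part of these marker shifts in the lower Gpx1, Prdx6 and Txn2 levels was not tested. Gpx4, which reduces lipid hydroperoxides in membranes and guards against ferroptosis, had 58.5 RPKM in the control library, 67.2 after miR-106b, 70.6 after miR-93 and 49.0 after miR-25. Its ratios of 0.20, 0.27 and -0.26 had the same signs as those of Gpx1 and stayed within the cutoff, although the miR-93 value was 0.42 on listed reads. The endoplasmic reticulum members Gpx7 and Gpx8 were at 19.2, 21.5, 18.9 and 22.4 and at 51.4, 44.3, 52.7 and 51.8 RPKM in the libraries of miR-106b, of miR-93, of miR-25 and of the control. Their ratios lay between -0.25 and 0.02, all within the cutoff.

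The 6 peroxiredoxins, the family with the highest summed level, had 1 gene past the cutoff after miR-93 and 1 after miR-25. Prdx1 was at 281 RPKM in the control library, 234 after miR-106b, 209 after miR-93 and 262 after miR-25. It was below the control with all mimics and past the cutoff only after miR-93, at -0.43 (95% interval -0.48 to -0.37), a value of -0.28 on listed reads. The other cytosolic typical enzyme, Prdx2, had 227 RPKM in the control library, 244 after miR-106b, 226 after miR-93 and 181 after miR-25 and was lowest after miR-25, where its ratio was -0.33 (95% interval -0.42 to -0.24). Mitochondrial Prdx3 was at 91.8, 86.5, 104 and 102 RPKM in the libraries of miR-106b, of miR-93, of miR-25 and of the control. Prdx4 of the endoplasmic reticulum was at 46.8, 45.4, 43.0 and 54.0, and Prdx5, found in several compartments, at 35.7, 32.9, 35.0 and 37.5. None of these 3 passed the cutoff, and their ratios ran from -0.33 to 0.03. Prdx6, a peroxiredoxin that uses glutathione and also acts as a phospholipase, was at 79.6 RPKM in the control library, 71.0 after miR-106b, 75.8 after miR-93 and 53.3 after miR-25. Here the miR-25 library stood apart, with a ratio of -0.58 (95% interval -0.65 to -0.51) against -0.16 after miR-106b and -0.07 after miR-93.

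Srxn1, which repairs overoxidised peroxiredoxins and is a target of Nrf2, was the least read member of this family. It had 18, 15, 57 and 29 reads in the libraries of miR-106b, of miR-93, of miR-25 and of the control, or 0.83, 0.75, 2.86 and 1.75 RPKM. The miR-25 library had the most and both AAAGUGC libraries the fewest. With miR-25 the ratio was 0.71 (95% interval 0.04 to 1.41). With miR-106b and miR-93 it was -1.08 (95% interval -2.01 to -0.18) and -1.22 (95% interval -2.22 to -0.27), but the RPKM was under 1.0 there and these comparisons were not counted. The order of the libraries was the one seen for Nfe2l2 and Nqo1 in that miR-25 exceeded miR-106b and miR-93. Other genes went either way. Gclc and Txnrd1 were also higher after miR-25 than after both, while Hmox1, Gclm, Slc7a11 and Gstp1 were lower.

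Among the glutathione transferases, Gstp1 (ENSRNOG00000018237) was the only gene of the 34 upregulated after miR-106b. Its level of 61.1 RPKM in the control library, 92.0 after miR-106b, 90.5 after miR-93 and 61.3 after miR-25 put both AAAGUGC libraries together above the other pair. The log2 ratio was 0.59 (95% interval 0.48 to 0.70) after miR-106b, 0.57 (95% interval 0.46 to 0.68) after miR-93 and 0.01 (95% interval -0.11 to 0.12) after miR-25. Gsta4, which conjugates the lipid peroxidation product hydroxynonenal, was at 88.8 RPKM in the control library, 92.4 after miR-106b, 89.6 after miR-93 and 68.9 after miR-25, with a ratio of -0.37 (95% interval -0.45 to -0.28) after miR-25, just within the cutoff. The microsomal enzyme Mgst1 had 145, 157, 101 and 99 reads in the libraries of miR-106b, of miR-93, of miR-25 and of the control. Its ratio after miR-93 of 0.40 (95% interval 0.02 to 0.77) passed the cutoff with an interval that nearly reached 0, against 0.16 after miR-106b and -0.24 after miR-25.

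Mimics were next compared with each other, which leaves out the control library they share. Between the 2 mimics with the same seed, 0 of 33 counted genes were higher after miR-93 and 2 were lower, Gpx3 at -0.47 (95% interval -0.56 to -0.37) and Gclc at -0.39 (95% interval -0.52 to -0.27). That is 6.06% of the genes, where 15.5% of all 11391 genes tested differed past 1.3-fold, 7.30% higher and 8.21% lower. On listed reads 1 was higher (Glrx at 0.44) and 1 lower, with Gclc at -0.33. Nfe2l2 differed by -0.10 (95% interval -0.19 to -0.01), Nqo1 by -0.10 (95% interval -0.31 to 0.10) and Gstp1 by -0.02 (95% interval -0.11 to 0.07) between these libraries.

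Between miR-25 and miR-106b, 7 of 33 genes were higher after miR-25 (Gclc, Sod3, Nfe2l2, Gsr, Cat, Txnrd2 and Nqo1) and 10 lower (Hmox1, Gpx1, Txn2, Gstp1, Gpx4, Prdx2, Gsta4, Prdx6, Mgst1 and Txnip), or 51.5% against 45.1% of all genes (22.1% higher and 23.0% lower). On listed reads these counts were 8 and 5, with Txnip, Prdx2, Prdx6, Gsta4 and Mgst1 then within the cutoff and Txnrd1 past it. Between miR-25 and miR-93, 5 of 33 were higher (Gclc, Sod3, Nfe2l2, Gpx3 and Nqo1) and 7 lower (Gpx1, Hmox1, Mgst1, Gstp1, Gpx4, Prdx6 and Gclm), or 36.4% against 45.0% of all genes (22.1% higher and 23.0% lower). Gclc was the widest of the counted differences, at 0.81 (95% interval 0.71 to 0.91) over miR-106b and 1.21 (95% interval 1.09 to 1.32) over miR-93. Nfe2l2 was higher after miR-25 by 0.66 (95% interval 0.58 to 0.74) and 0.76 (95% interval 0.68 to 0.85), while Hmox1 had ratios of -0.71 (95% interval -0.91 to -0.51) and -0.66 (95% interval -0.87 to -0.45). Srxn1 was not counted, and its read ratios were 1.79 (95% interval 1.00 to 2.64) and 1.93 (95% interval 1.09 to 2.86) in favour of miR-25.

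**Figure D3:**
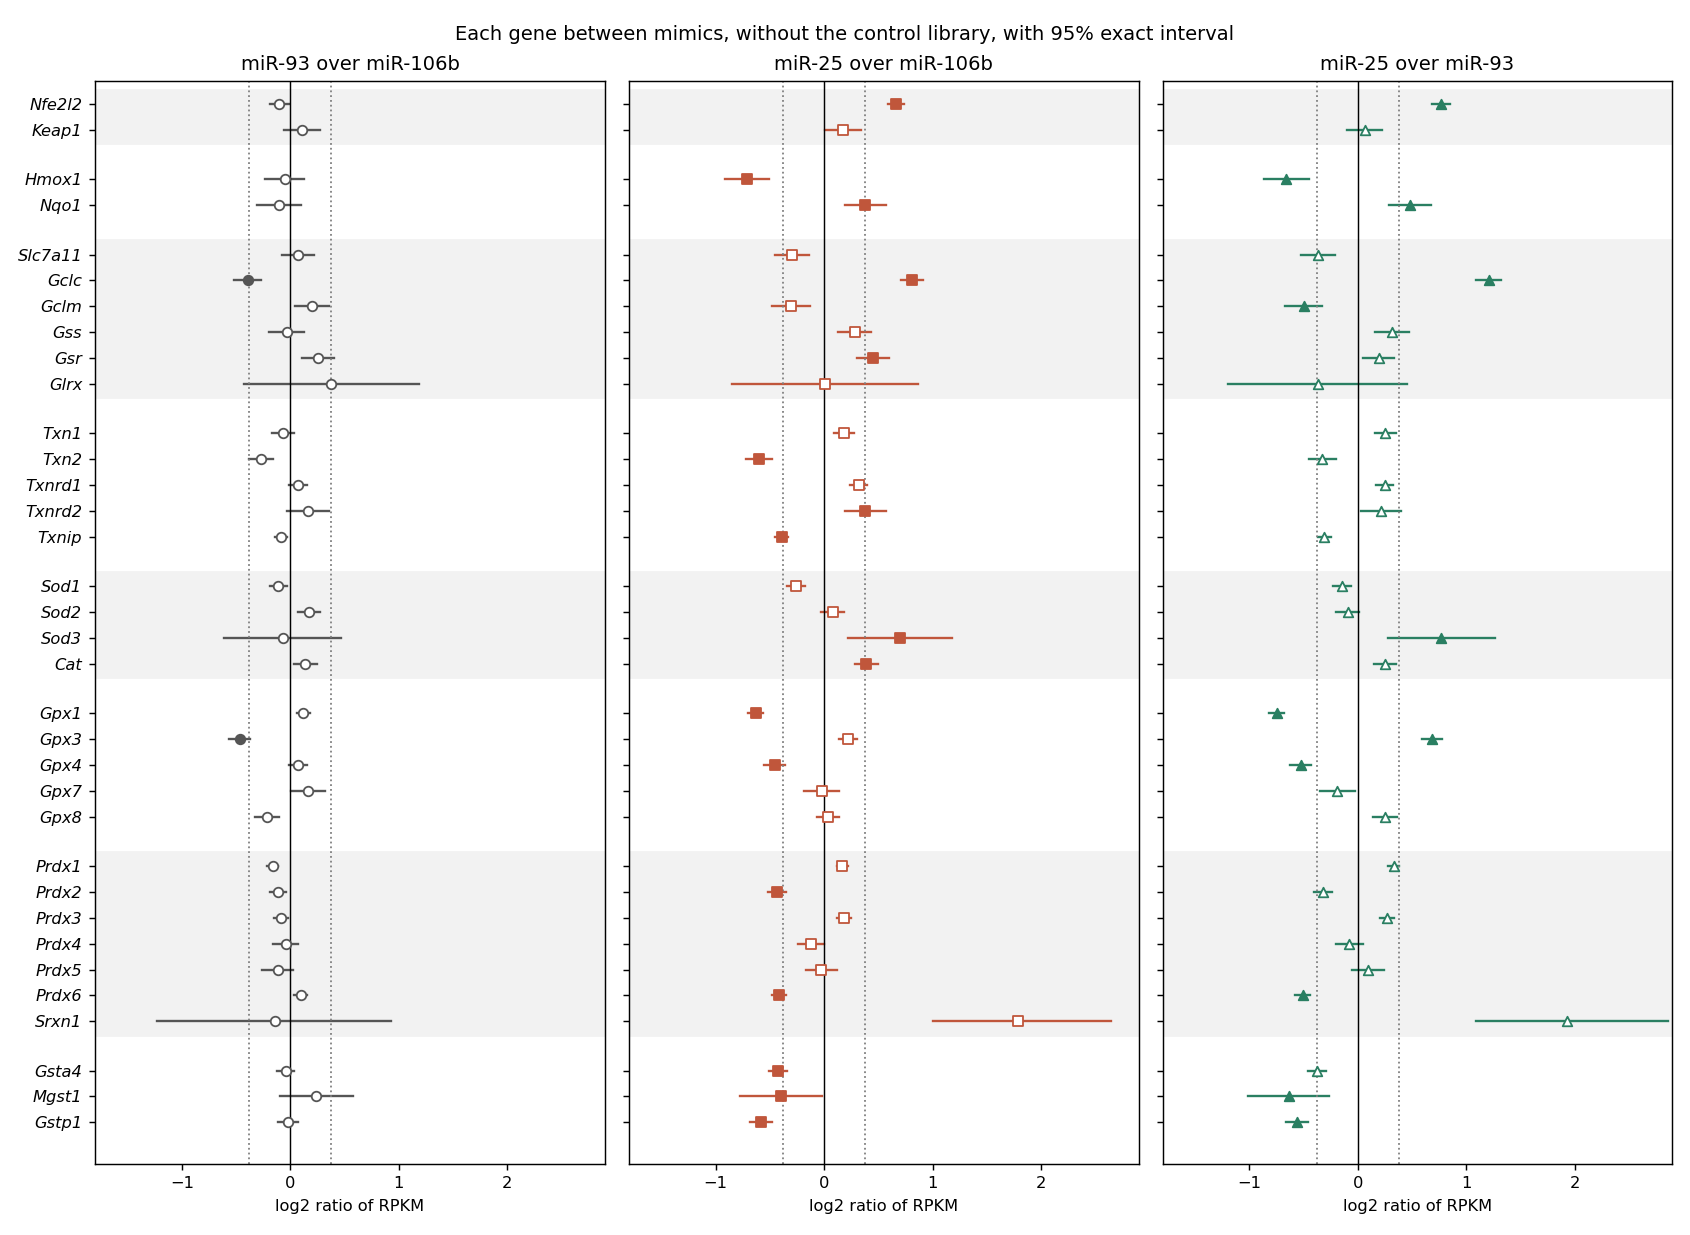
Log2 ratio of RPKM between 2 mimic libraries for the 34 genes, with 95% exact intervals (counting error only), dotted lines at 1.3-fold and filled symbols for counted genes past it. The miR-93 over miR-106b panel has 2 filled symbols, against 17 for miR-25 over miR-106b and 12 for miR-25 over miR-93. Of all genes tested, 15.5%, 45.1% and 45.0% were past 1.3-fold in these panels.

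The summed level of all 34 genes was 1909 RPKM after miR-106b, 1833 after miR-93, 1759 after miR-25 and 2003 in the control. The change from control was -4.68%, -8.48% and -12.2%, but on listed reads it was 0.963% and 1.28% for miR-106b and miR-93 and -2.69% for miR-25. Of 3 families summed, the glutathione peroxidases differed most after miR-25, where 295 RPKM against 395 was a change of -25.2%, or -17.1% on listed reads. Peroxiredoxins summed to 723, 675, 679 and 781 RPKM and superoxide dismutases to 169.8, 162, 149 and 176.

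The make-up of a family within a library does not depend on scaling. Gpx1 made up 48.9% of glutathione peroxidase RPKM after miR-106b, 53.0% after miR-93, 39.4% after miR-25 and 43.1% in the control. Gpx3 made up 13.7%, 9.88%, 19.8% and 23.3% in the same order, so the share that Gpx3 held in the control was smaller with all mimics and smallest after miR-93. In the peroxiredoxins, Prdx1 held 32.3%, 30.9%, 38.7% and 36.0% and Prdx2 33.8%, 33.5%, 26.6% and 29.1%, so per length Prdx2 led with both AAAGUGC mimics and Prdx1 in the miR-25 and control libraries. Without division by length Prdx1 led in all 4 libraries, and Prdx2 held 15.8%, 15.3%, 12.2% and 13.2% of the reads. Sod1 made up between 80.8% and 84.5% of superoxide dismutase RPKM, and Sod3 0.733%, 0.731%, 1.36% and 1.71%. Taken over reads without division by length, the 95% exact binomial interval of a share reached at most 1.61 percentage points either side.

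**Figure D4:**
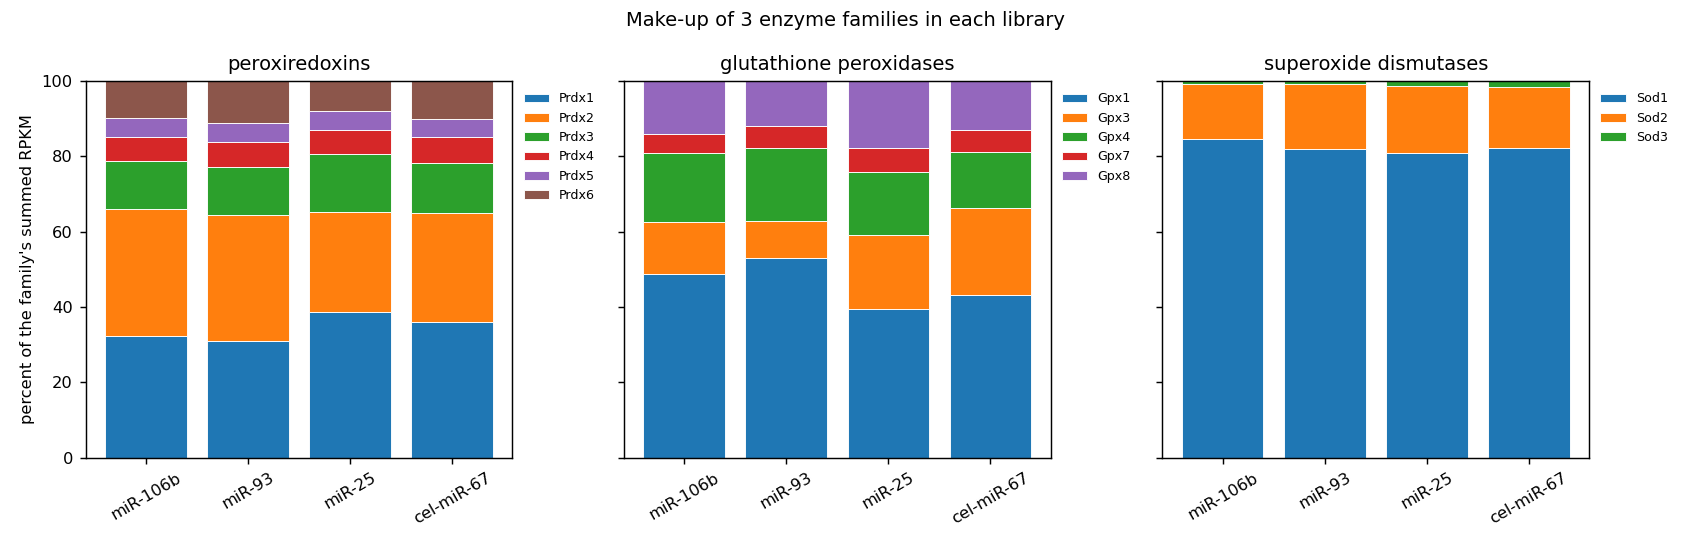
Stacked bars of each gene's percent of the summed RPKM of its family (axis from 0 to 100) for the peroxiredoxins, glutathione peroxidases and superoxide dismutases in the 4 libraries. The Gpx3 segment is largest in the control at 23.3% and smallest after miR-93 at 9.88%, and the Sod1 segment is at least 80.8% in every library.

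Promoters of the genes were searched for the core of the antioxidant response element, TGACNNNGC, on both strands of the RefSeq windows that run from 250 bases before to 50 bases after the start used in that table (GRCr8). Windows were given for 28 of the 34 genes, and 8 held the core (Gclm, Gstp1, Nfe2l2, Prdx1, Prdx4, Prdx5, Sod2 and Txnrd1). Counted by window, 8 of 31 held it, or 25.8% against 12.1% of all 33469 windows. The core followed directly by an A, which is part of the core matches, was found for Gclm, Gstp1 and Txnrd1 and in 3.00% of all windows. These are shown with Prdx1, which of the genes with a match was the most abundant in the control library, with the core in capitals and on the strand that reads TGAC.
Gclm, chr2:213031955-213031979, minus strand: gaagacaaTGACTAAGCagaaaccg
Gstp1, chr1:210769750-210769774, minus strand: cactgtgtTGACTCAGCatccgggg
Txnrd1, chr7:22755966-22755990, plus strand: tgtcagaaTGACAAAGCaaaaatcc
Prdx1, chr5:135383763-135383787, minus strand: gcggggtaTGACTCAGCgctttccc
The genes with a core match did not share a direction. Gstp1 was upregulated after miR-106b and miR-93, Nfe2l2 was downregulated with both and Prdx1 after miR-93, and Gclm, Prdx4, Prdx5, Sod2 and Txnrd1 passed the cutoff with no mimic. A match is a description of the letters and not of binding. Sequence outside the windows was not searched, so a gene without a match is not shown to lack the element.

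Other genes of the pathways were read from 7 lists, of whose 119 genes 103 were listed once and 92 counted with each mimic. Of the 92, 11 were upregulated and 12 downregulated after miR-106b, 19 and 14 after miR-93, and 15 and 22 after miR-25, or 25.0%, 35.9% and 40.2% against the 24.6%, 30.8% and 42.0% of all genes. Their median log2 ratios were 0.091, 0.078 and 0.025. On listed reads the upregulated and downregulated genes numbered 18 and 9 after miR-106b, 30 and 11 after miR-93, and 23 and 14 after miR-25. Under this scaling the median over all genes tested was 0.080, 0.14 and 0.14, and their share past the cutoff is not given here.

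Among the 15 counted partners and regulators of Nrf2, 4 were downregulated and 1 upregulated after miR-106b, 3 and 2 after miR-93 and 3 and 1 after miR-25. Downregulated shares were thus 26.7%, 20% and 20%, against 12.7%, 15.6% and 22.6% of all genes. Upregulated shares were 6.67%, 13.3% and 6.67%, against 11.9%, 15.1% and 19.3% of all genes. Mafk, a small Maf protein that pairs with Nrf2 on DNA, was at 36.3 RPKM in the control library, 21.9 after miR-106b, 10.8 after miR-93 and 34.9 after miR-25. It was low in the libraries in which Nfe2l2 was low, with log2 ratios of -0.73, -1.75 and -0.06. Nfe2l1, a relative of Nrf2, had ratios of -0.40, -0.54 and -0.18 for miR-106b, for miR-93 and for miR-25. Sqstm1, the autophagy adaptor p62 that binds Keap1 and is itself an Nrf2 target, was at 38.7 RPKM in the control library, 28.1 after miR-106b, 30.3 after miR-93 and 58.8 after miR-25. It was downregulated after miR-106b at -0.46 and upregulated after miR-25 at 0.60. Rbx1, the ring finger subunit of the ligase that Keap1 works with, had log2 ratios of 0.46 after miR-106b and -0.46 after miR-25.

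NADPH supply and iron handling were read next, against the same shares of all genes. Of 10 counted NADPH genes, 1 was downregulated after miR-106b, and upregulated and downregulated genes numbered 2 and 1 after miR-93 and 1 and 2 after miR-25. Taldo1 of the pentose phosphate pathway and the mitochondrial isocitrate dehydrogenase Idh2 were upregulated after miR-93, at 0.60 and 0.43, and the transhydrogenase Nnt was at -0.39 after miR-25. Of 10 iron and haem genes, 1 was upregulated and 1 downregulated after miR-106b and after miR-93, and 2 and 1 after miR-25. The biliverdin reductase Blvrb was at 0.46 after miR-106b, the ferritin heavy chain Fth1 at 0.38 after miR-93 and the transferrin receptor Tfrc at -0.85 after miR-25.

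The other glutathione enzymes and the detoxifying enzymes are read against the shares of all genes with the 3 mimics. Those were 11.9%, 15.1% and 19.3% upregulated and 12.7%, 15.6% and 22.6% downregulated. Of 17 counted glutathione enzymes, upregulated and downregulated genes numbered 2 and 1 after miR-106b, 5 and 4 after miR-93, and 2 and 6 after miR-25. Mgst3, a microsomal enzyme with glutathione peroxidase activity, was at 80.0 RPKM in the control library, 49.1 after miR-106b, 54.2 after miR-93 and 30.6 after miR-25 and was downregulated with each mimic, at ratios of -0.71, -0.56 and -1.39. Gstm4 was upregulated after miR-25 at 0.43. The 11 detoxifying enzymes counted gave 3 and 2 after miR-106b, 4 and 3 after miR-93, and 2 and 5 after miR-25. Mitochondrial aldehyde dehydrogenase (Aldh2) was at 39.0 RPKM in the control library, 29.1 after miR-106b, 24.6 after miR-93 and 27.4 after miR-25, with the control above every mimic library and ratios of -0.42, -0.66 and -0.51. The reductases Cyb5r3 after miR-93 at -0.59 and Ptgr1 after miR-25 at -1.29 were also downregulated.

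The 21 counted genes of other thioredoxin fold and repair proteins had 3 upregulated and 2 downregulated after miR-106b, 4 and 2 after miR-93, and 5 and 3 after miR-25. Nucleoredoxin (Nxn) was upregulated with both AAAGUGC mimics, at 0.63 after miR-106b and 0.54 after miR-93. The methionine sulfoxide reductase Msrb3 had opposite calls, -0.51 after miR-93 and 0.61 after miR-25. Txndc5, a protein disulfide isomerase, was at -0.49 after miR-106b, and the copper chaperone Atox1 at -0.90 after miR-25. Of 8 counted sources of superoxide, 1 was upregulated and 1 downregulated after miR-106b, 1 upregulated after miR-93, and 2 upregulated and 2 downregulated after miR-25. Beside both lists, 11.9%, 15.1% and 19.3% of all genes were upregulated and 12.7%, 15.6% and 22.6% downregulated with the 3 mimics.

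**Figure D5:**
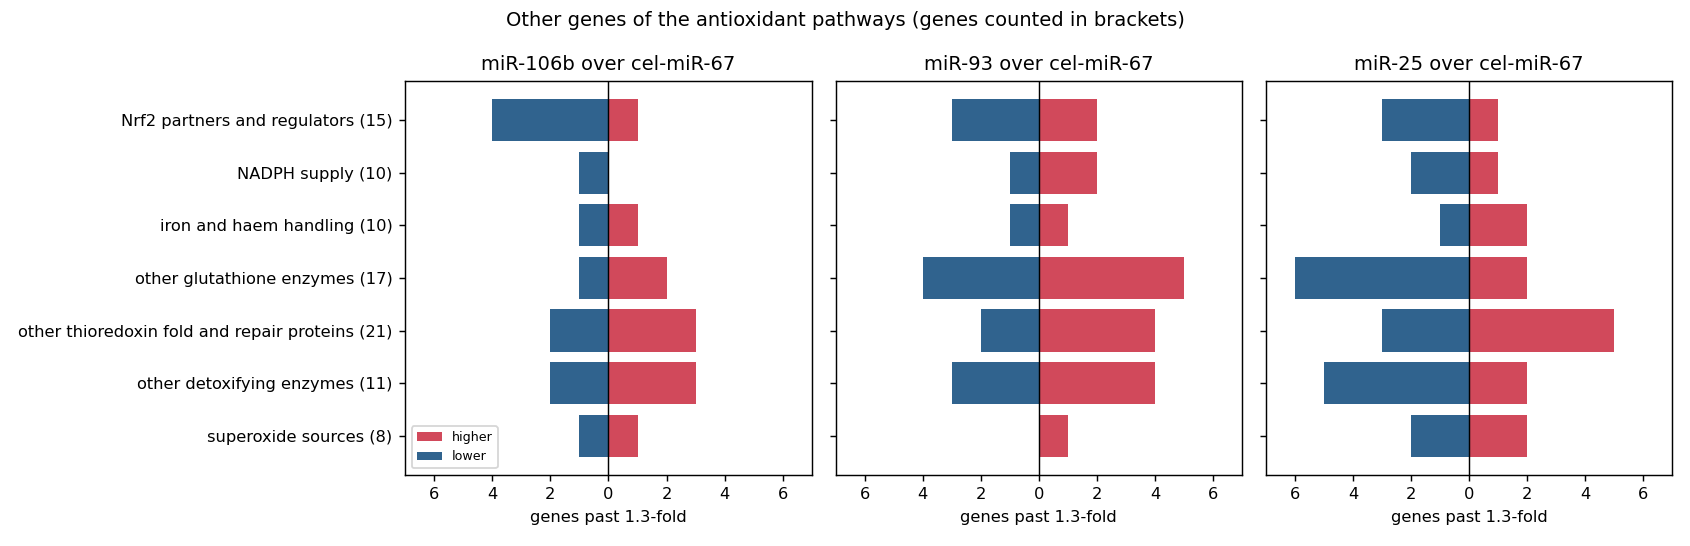
Number of genes past 1.3-fold higher (right of 0) and lower (left of 0) than in the control in the 7 pathway lists, in 1 panel per mimic, with the genes counted in brackets. The bar for other glutathione enzymes reaches 6 downregulated genes of 17 after miR-25 against 1 after miR-106b, where 22.6% and 12.7% of all genes were downregulated.

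Some values are uncertain because genes have near copies. RefSeq (GRCr8) lists 33 pseudogenes named after 10 of the 34 genes, among them 9 for Glrx, 7 for Prdx1, 4 for Gpx4 and 3 each for Prdx6, Gsta4 and Gstp1, and how reads shared with such copies were counted is not given in the sources used here.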

How the data were processed

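RNA of neonatal rat cardiomyocytes transfected with 1 of 4 mimics was sequenced as 1 library per mimic, grouped by the labels. Per the methods and processing notes, the authors aligned trimmed reads to the Rnor_6.0 rat genome with STAR 2.7, rounded gene counts and deposited RPKM values computed with edgeR. The counting program is not given in the sources used here. The series table and the 4 sample files hold identical values.

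Whole reads were recovered here from the steps of the RPKM values for 15731 of 15731 genes. For 655 genes whose reads share a factor, the smallest factor giving a whole gene length was used, which can only widen an interval. The library sizes that give whole gene lengths were 22674400 for the control, 27253400 for miR-25, 27315700 for miR-93 and 29749500 for miR-106b, rounded. The methods give a far lower number of reads per sample. The recovered reads are the smallest whole numbers in the ratios of the deposited values, apart from those shared factors, and every interval rests on them. The recovery and the intervals were tested on data simulated from the recovered lengths and library sizes with counting error only. That test could not show a wrong library size or a spread beyond counting error.

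Ratios are of deposited RPKM without a pseudocount, for genes above 1.0 RPKM in both libraries, with a cutoff of 1.3-fold. Intervals are 95% exact (Clopper-Pearson) from recovered reads, and reads without molecular identifiers are not independent molecules. With 1 library per mimic no count model was fitted.

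All 34 genes are named, and of each pathway list and mimic the 2 genes with the largest absolute log2 ratio among those past 1.3-fold with RPKM above 10 in both libraries. Of each marker list, genes at 0 and the highest are named. The genes, lists and cutoffs were chosen with earlier results of these data known. List genes not listed once, 16 of 119 in the pathway lists, were not analysed here. Alternatives were RPKM cutoffs of 2.0 and none, pseudocounts of 0.1 and 1, TMM factors, fold cutoffs of 1.5 and 2, centring on the median gene, scaling to listed reads, reads without division by length and a longer motif. The tools were scipy 1.17.1, numpy 2.4.6, matplotlib 3.10.9 and pandas 2.3.3 under Python 3.11.15.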

Additional observations from a re-analysis of the deposited data

How the results depend on the processing

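No paired analysis was possible because each mimic has 1 library, and for the same reason no library was left out in turn. Counts of antioxidant genes moved with the cutoff. At 1.5-fold, 3 genes were downregulated after miR-106b, 4 in all after miR-93 (0 upregulated, 4 downregulated) and 6 in all after miR-25 (3 downregulated). At 2-fold, the count was 1 after miR-106b (0 upregulated, 1 downregulated), 2 after miR-93 (0 and 2) and 0 after miR-25 (0 and 0). Shares of all genes at 1.5-fold and 2-fold are not given here, so these counts have no background beside them. Without an RPKM cutoff, 2 were upregulated after miR-106b. Scaled to reads on listed genes, upregulated genes numbered 2 after miR-106b, 7 after miR-93 and 7 after miR-25, and downregulated genes 5 after miR-93. All 3 median log2 ratios then turned positive, at 0.056 after miR-106b, 0.082 after miR-93 and 0.018 after miR-25. The medians over all genes tested shifted too, to 0.080, 0.14 and 0.14, each above that of the antioxidant genes. Under that scaling 50 of 97 single-gene ratios fell outside their 95% interval. Under pseudocounts, centring and TMM factors 0 of 97 did, nor did the 94 that an RPKM cutoff of 2.0 left. Counts for the pathway lists and between mimics stayed within 1.5 times when centred and, for the lists, at an RPKM cutoff of 2.0. On listed reads, an alternative added after the values were seen, upregulated list genes numbered 18 after miR-106b, 30 after miR-93 and 23 after miR-25 and downregulated ones 14 after miR-25. Between mimics, antioxidant genes then numbered 1 higher and 1 lower for miR-93 over miR-106b and 5 lower for miR-25 over miR-106b, with the other 3 counts within 1.5 times.

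Without division by length, the share of Prdx1 in its family was 30.7%, 28.7%, 35.9% and 33.1% in the libraries of miR-106b, of miR-93, of miR-25 and of the control, that of Gpx1 40.9%, 45.3%, 31.6% and 34.5%, and that of Sod1 63.6%, 59.1%, 57.6% and 59.9%. The longer motif left 3 genes with a match. With 1 library per mimic the spread between cultures is unknown, and depth limits mainly Glrx, Srxn1, Sod3 and Mgst1.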

Other observations

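Grouped by where the protein works, a grouping chosen after the values were seen, 2 enzymes (Sod3 and Gpx3) were taken as secreted. They had log2 ratios between -1.34 and -0.58 with the 3 mimics, all past 1.3-fold lower. Both were already known to be downregulated with each mimic when grouped. Prdx4, which can also be secreted but is placed below with the endoplasmic reticulum, had ratios of -0.21, -0.25 and -0.33, within the cutoff. The 4 mitochondrial members (Txn2, Txnrd2, Prdx3 and Sod2) had 0, 1 and 1 gene past the cutoff for miR-106b, for miR-93 and for miR-25, in the last 2 cases Txn2, and median ratios of -0.18, -0.22 and -0.04. The 3 members of the endoplasmic reticulum (Gpx7, Gpx8 and Prdx4) had none past the cutoff and medians of -0.21, -0.22 and -0.25. Among all genes 24.6%, 30.8% and 42.0% passed the cutoff, and these groups are small beside such shares.

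Of the 5 members with selenocysteine in the active site (Gpx1, Gpx3, Gpx4, Txnrd1 and Txnrd2), also grouped after the values were seen, 0 were upregulated with any mimic. For all genes the upregulated share was 11.9%, 15.1% and 19.3%, so 0 of 5 is not set apart from it. On listed reads Gpx4 after miR-93 (0.42) and Txnrd1 after miR-25 (0.51) passed the cutoff upwards. Gpx3 was downregulated with each and Gpx1 after miR-25. The reads of 13 mitochondrial genes made up 5.20%, 5.36%, 4.51% and 6.17% of listed reads in the libraries of miR-106b, of miR-93, of miR-25 and of the control.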
